A study of Mus musculus with 2 samples.

Results

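Chemokine ligand genes encode the small secreted proteins that guide migrating leukocytes, and their position relative to CTCF was mapped in the embryonic mouse lung. The members were the protein-coding genes of GENCODE mouse release M21 whose symbol is Ccl or Cxcl followed by a digit, together with Pf4, Ppbp, Xcl1 and Cx3cl1. This rule found 39 of 21938 protein-coding genes, on 8 chromosomes, with 12 members on chromosome 5, 12 on chromosome 11, 5 on chromosome 4 and 4 on chromosome 8. Cxcl11 was not a member, since the annotation classes it as a polymorphic pseudogene. CTCF was immunoprecipitated from lungs of B6NCrl mouse embryos of both sexes at 14.5 days, which had been pulverised and pooled, and the bound DNA was sequenced (ChIP-seq). The 2 samples, biological replicates 1 and 2, formed 1 group with no second condition, and their records name a single biosample and donor, so differences between them may be purely technical. No test between conditions was therefore possible, and counts are given beside the same counts over all genes or all sites. A bulk sample does not show in which cells of the lung a site was occupied, and peak lists hold no RNA by which the tissue could be checked.

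A site here is the summit of a peak in the optimal list, which the authors thresholded for reproducibility by the irreproducible discovery rate (IDR). The list held 54953 peaks, of which 54943 lay on chromosomes 1 to 19 and X. Signal is the authors' own value for each peak, with a median of 62.3 over all sites, and no scaling between lists was applied here. Sequencing depth is unknown, since peak lists hold no read counts. Coordinates refer to mm10, the GRCm38 assembly.

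CTCF is a zinc finger protein that halts the loop-extruding cohesin complex, and its motif has a direction: loops form mostly between motifs that point towards each other. Chemokine genes arose by repeated tandem duplication, so that many lie side by side in clusters. Most are nearly silent at rest and are switched on by inflammation, while a smaller homeostatic group, such as Cxcl12, acts during development and in the routine traffic of lymphocytes. In the lung, epithelial, endothelial and resident immune cells all produce them.

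The sequences below are a selection of the motifs at sites that border or divide the chemokine clusters, mostly the stronger ones. The 2 motifs of Cxcl12, the first upstream of the gene and the other in a UTR, were added. They were read from the GRCm38 patch 6 assembly in the direction of the motif, and the capitals mark bases 4 to 15 of the 20-base motif matrix, its CTCF core. The matrix was learned on sites of the chromosomes that hold no member.
Consensus of the matrix: tggCCACCAGGGGGCgctag
Before Ccl2, chr11:81996352-81996371, plus strand: aggCCACCAGGGGGCagcaa
Between Ccl7 and Ccl11, chr11:82048234-82048253, plus strand: cagCCACCAGGAGGCagact
Between Ccl8 and Ccl1, chr11:82174959-82174978, minus strand: cagCCACTAGAGGGCagggc
In the intron of coding Ccl1, chr11:82177947-82177966, minus strand: tacACACTAGATGGCgctgt
In the long Ccl1 transcript, chr11:82235717-82235736, plus strand: taaCCACTAGAGGGCagaca
Before Ccl5, chr11:83440498-83440517, plus strand: cagCCAGCAGGTGGCgctgc
Between Ccl5 and Ccl9, chr11:83556532-83556551, plus strand: taaCCACTAGATGGCaatat
After Ccl4, chr11:83739432-83739451, minus strand: catCCACCAGGTGGCagcat
Upstream of Cxcl3, chr5:90785715-90785734, minus strand: ccgCCACTGGGTGGCgagag
In Cxcl3, chr5:90788325-90788344, minus strand: tggCCAGAAGAGGGCatcag
After Cxcl2, chr5:90909171-90909190, minus strand: tggCCAGCAGGTGGCagacg
After Ccl21a, chr4:42870938-42870957, minus strand: tttCCACAAGGGGGCagggg
Before Ccl22, chr8:94704209-94704228, plus strand: tgaCCGGCAGGTGGCactcg
After Ccl17, chr8:94812969-94812988, minus strand: tggCCACAAGGTGGCagcaa
Upstream of Cxcl12, first of 2, plus strand: agaCCACCAGAGGGCgccgg
In a Cxcl12 UTR, plus strand: tgtCCTGCAGGGGGCgctcc

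CTCF was seldom found at the promoters of chemokine genes. Of the 39 members 3, or 7.69%, had a site within 1 kb of the transcription start site (TSS), with a 95% Wilson interval of 2.65 to 20.3, while 26.6% of all protein-coding genes had one. The 3 were Cxcl1, Cxcl2 and Cxcl3, neighbours on chromosome 5 that attract neutrophils through the receptor CXCR2. The interval covers counting error only, and neighbouring genes that arose by duplication are not independent. The window of 1 kb set the call: Cxcl2 was the member just inside it, with its summit 824 bp away, and Cxcl12 the one just outside, at 1526 bp.

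By role, promoter sites were confined to the group of neutrophil-attracting and platelet chemokines in the optimal list. There 3 of 7 had one, against 0 of 14 inflammatory CC genes, 0 of 9 homeostatic or dual CC genes, 0 of 2 interferon-induced genes, 0 of 5 other CXC genes and 0 of 2 genes of other classes. Each of these groups is small, and the difference between them was not tested. The 9 homeostatic or dual genes include the 5 of the chromosome 4 cluster. Those lie in repeated sequence, described below, where the values do not show that CTCF was absent. Without these 5 members, left out after the data were seen, 3 of 34 had a promoter site. In the strongest peaks of replicate 2 alone, Ccl20, an inflammatory CC gene, also had a site.

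The 4 promoter sites were of middling strength. At Cxcl3 the peak at chr5:90785603-90785892 had a signal of 46.0 in replicate 1 and 29.9 in replicate 2 and of 77.9 in the optimal list, and it peaked 355 bp upstream. Cxcl1 had one summit 303 bp upstream, with 45.8 and 24.0 in the replicates and 70.05 in the optimal list, and another 276 bp downstream, with 17.4 and 17.5 and an optimal signal of 35.9. The peak of Cxcl2 had 22.65 in replicate 1, 39.15 in replicate 2 and 64.4 in the optimal list. Replicate 1 was the higher at Cxcl3 and at the upstream Cxcl1 site, and replicate 2 at Cxcl2. The motif was present in 1 of these 4, that of Cxcl3, and over all promoter sites of protein-coding genes the share was 25.1%. Each of the 4 was also in the conservative list, which held 87.5% of all sites. That list had 53112 peaks, and 48072 sites matched one. A match needed the same start, end and summit, so a shifted peak counted as missing.

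Peaks outside the optimal list were found at 13 of the 36 members without a promoter site. In the pooled list of 300000 peaks, 16 of 39 members, or 41.0%, had any summit within 1 kb of the TSS, against 62.1% of protein-coding genes. The strongest of the 13 was at Ccl20, the ligand of CCR6, with a pooled signal of 19.03. Next came Cx3cl1, the membrane-bound chemokine fractalkine, with 16.3, and Cxcl14, an epithelial chemokine, with 11.8. Among the promoter sites of the members the lowest signal was the 35.9 at Cxcl1. Over all protein-coding genes it was 5.00, so signal alone did not set which peaks were in the optimal list.

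The median distance to the nearest site was 13.6 kb over the 39 members and 6.7 kb over the 21755 protein-coding genes on chromosomes with sites. Of the members 13 of 39 lay nearer than 6.7 kb, and the nearest site held the motif for 28 of 39. Some members shared a nearest site, as Ccl19 and Ccl21a did. The same count over all protein-coding genes was not made, and of all sites 55.2% held the motif. The range ran from 276 bp at Cxcl1 to 495.2 kb at Ccl21b. By role, medians were 6.2 kb for neutrophil-attracting and platelet genes, 6.4 kb for other CXC genes, 14.5 kb for inflammatory CC genes and 40.3 kb for homeostatic or dual CC genes. The last group holds 9 genes, among them all 5 of the chromosome 4 cluster, at 13.6 to 495.2 kb. Its others were Ccl17 and Ccl25, each at 2.5 kb, Ccl28 at 16.9 kb and Ccl22 at 40.3 kb. Without the 5 genes of the chromosome 4 cluster, left out after the data were seen because of the repeated sequence described below, the median over 34 members was 11.1 kb. With the nearest of all transcript starts of each gene, the median over the 39 members was 9.6 kb. The same median over all protein-coding genes was not computed.

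**Figure D1:**
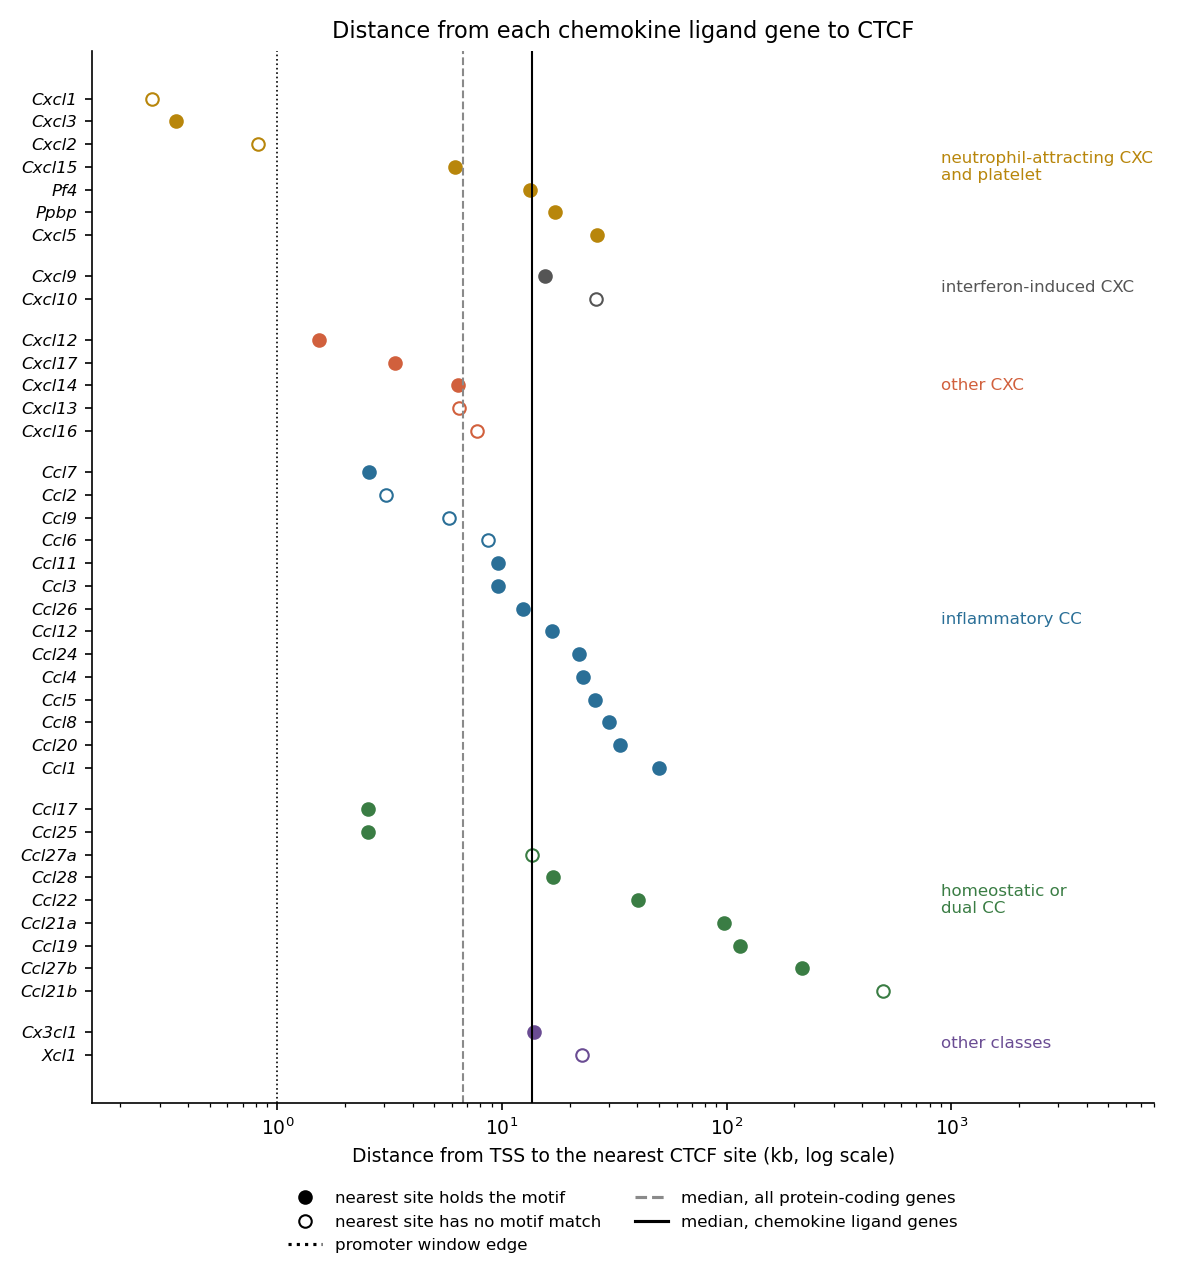
Distance in kb (log scale) from the TSS of each of the 39 chemokine ligand genes to the nearest CTCF site of the optimal list, grouped by role; filled points have a motif at that site, the dotted line marks 1 kb, and the dashed and solid lines mark the medians of all protein-coding genes (6.7 kb) and of the members (13.6 kb). Only Cxcl1, Cxcl2 and Cxcl3 lie left of the dotted line, and Ccl21b lies farthest right at 495.2 kb.

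Chemokine promoters were poor in CpG, and CpG content went with promoter sites over the genome. The ratio of observed to expected CpG within 500 bp of the TSS had a median of 0.216 in the members and 0.552 in all protein-coding genes, and 35 of 39 members lay below 0.6. Over all protein-coding genes below 0.6, 14.3% had a promoter site, against 41.1% of those at or above it. The members below 0.6 had a site in 3 of 35, or 8.57%. The members above it were Cxcl16, a membrane-anchored ligand of CXCR6, Cxcl14, Cxcl12 and Ccl25, and 0 of these 4 had one. The part of base composition in the low share was not tested.

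Chemokine receptors, the G protein-coupled receptors that read these ligands, had promoter sites at 5 of 24 genes, or 20.8%. Ackr3, the scavenging receptor for Cxcl12, had a signal of 115.1 in replicate 1, 65.9 in replicate 2 and 180.4 in the optimal list, and its summit lay 29 bp upstream. Cxcr4, the signalling receptor for Cxcl12, had 87.5 and 73.3 in the replicates and 162.7 in the optimal list at 348 bp upstream. Ccr10, which binds Ccl27 and Ccl28, had sites with 87.6 and 82.65. The remaining 2 were weak, with 22.8 at Ccrl2 and 14.1 at Cx3cr1, the fractalkine receptor, and for the latter replicate 2 had no summit within 50 bp. Other families that lie in tandem had low shares as well, with 9 of 100 Cyp genes, the cytochromes P450, and 2 of 53 Krt genes, the keratins. The ligand share was thus between those 2 families, and none of these differences was tested.

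Members on the same chromosome were chained where gaps were under 500 kb, which gave 5 clusters of 3 or more, holding 26 members. With 100 kb on each side, their windows held 68 sites, of which 20 lay between the first and the last member and 48 in the flanks. Sites inside had a median signal of 68.5 (range 18.6 to 281.7) and sites in the flanks 114.8 (range 15.6 to 485.1). The sites of 281.7 and 64.0 counted as inside only because of a long non-coding Ccl1 transcript, described below. The motif was found in 11 of 20 inside and 31 of 48 in the flanks. The ranges overlapped. With the lone genes included, the 39 TSSs fell into 28 intervals between consecutive sites, and in 21 of these only 1 member lay. Genes that are not members were not counted there. The 21 include genes with no other member near, such as Ccl20, Xcl1 and Ccl28, which were alone by their position. The same count over other gene families was not made. The median interval around a TSS was 62.5 kb for the members and 44.5 kb for all protein-coding genes.

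The Cxcl5 to Cxcl2 cluster on chromosome 5, 146.6 kb at chr5:90759360-90905938, holds 7 members that attract neutrophils or are stored in platelets. Its window had 13 sites, or 3.75 per 100 kb, against 2.53 on the whole chromosome. Inside the cluster the density was 4.09. CTCF was placed unevenly: Cxcl5, Ppbp and Pf4 shared an interval of 124.1 kb without a site, while 6 sites lay from Cxcl3 to Cxcl2. Ppbp encodes the precursor of a platelet neutrophil attractant, and Pf4 platelet factor 4. Beside the promoter site of Cxcl3, a second one lay in an annotated non-coding exon of that gene at chr5:90788192-90788481, with 41.5 in replicate 1, 26.9 in replicate 2 and 68.8 in the optimal list. Cxcl15, which encodes the lung epithelial chemokine lungkine, stood alone in an interval of 78.7 kb, with its nearest site 6.2 kb upstream, that within Cxcl3. Between Cxcl15 and Cxcl1 a site without a motif at chr5:90866843-90867132 had 28.4 and 20.5 in the replicates and 49.2 in the optimal list.

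The strongest site of that window closed the cluster 3.2 kb past the end of Cxcl2, at chr5:90909067-90909295. It had 137.2 in replicate 1, 100.5 in replicate 2 and 237.7 in the optimal list, and its motif, on the minus strand, pointed back into the cluster. No site of the cluster itself reached that signal, the highest inside being the 77.9 at Cxcl3. On the other side the first site stood 97.8 kb before Cxcl5, with 117.6 and 98.4 in the replicates and 217.2 in the optimal list, and had no motif match. The first with a motif stood 106.5 kb away, on the minus strand, with 239.5, and so pointed away from the cluster. Inside, the motifs of both Cxcl3 sites were on the minus strand too, so that 0 plus-strand motifs lay between the first and last member. That of the Cxcl3 promoter scored 12.8, close to the threshold of 12.05. Past Cxcl2, at the promoter of Mthfd2l, a mitochondrial folate enzyme gene, a site without a motif had 63.55 in replicate 1, 62.1 in replicate 2 and 126.8 in the optimal list. The gene's introns held 4 more, among them plus-strand sites of 207.5 and of 98.7, the latter with 44.3 and 54.0 in the replicates.

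The Ccl2 to Ccl1 cluster on chromosome 11, 270.1 kb at chr11:82035571-82305690, holds 6 CC chemokines for monocytes, eosinophils and T cells. Its window had 18 sites, or 3.83 per 100 kb, against 3.36 on the chromosome. Inside the cluster the density was 2.96. The strongest of all 68 sites in the 5 windows stood 39.2 kb before Ccl2, at chr11:81996189-81996493. It had 273.1 in replicate 1, 213.2 in replicate 2 and 485.1 in the optimal list, where it ranked 74, and its motif on the plus strand pointed into the cluster. The next strongest before Ccl2, at chr11:81983248-81983440, had 83.7, 72.4 and 156.5. Of the 6 sites before Ccl2, 4 held a motif and all 4 were on the plus strand. On the far side the first motif, on the minus strand, lay 94.1 kb beyond the annotated start of Ccl1, in an intron of Tmem132e. The signals of that site were 59.25 in replicate 1, 48.5 in replicate 2 and 109.6 in the optimal list. Between it and coding Ccl1, plus-strand motifs lay within the long non-coding transcript of that gene, described below.

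Sites separated most of these genes from each other. Ccl2, the classical monocyte attractant, and its neighbour Ccl7 were divided by a site without a motif, with 25.1 in replicate 1, 20.2 in replicate 2 and 44.9 in the optimal list, which lay 50 bp from the TSS of the protein-coding gene Gm17268. Ccl7 and Ccl11, the eosinophil attractant eotaxin, were divided by a plus-strand site at chr11:82048158-82048333 with 94.65 and 70.06 in the replicates and 160.2 in the optimal list. A weak site of 18.6, with 14.1 in replicate 1 and 4.39 in replicate 2, lay between Ccl11 and Ccl12, and it was not in the conservative list. Ccl12, a monocyte attractant, and Ccl8 shared an interval of 89.8 kb.

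Ccl1, a ligand of CCR8 on T cells, needed a separate look at its start. The TSS of the annotated gene, at 82305690 on the minus strand, is that of a long transcript annotated as non-coding, whereas the coding transcripts start near the other end of the gene. From the annotated TSS the nearest site was 49.9 kb away. From the coding start it was 1865 bp away, at chr11:82177820-82178068, with 120.8 in replicate 1, 91.2 in replicate 2 and 209.5 in the optimal list, and a minus-strand motif. A second minus-strand site, with 80.1, 58.6 and 137.5, lay beside it on the Ccl8 side. Further into the long transcript a plus-strand site at chr11:82235622-82235870 had 161.4, 119.1 and 281.7, the highest signal between the first and last member of any of the 5 clusters. Inside the cluster 2 weaker sites remained, one without a motif beside coding Ccl1, with 22.0, 7.73 and 32.7, and a plus-strand one in the long transcript, with 30.2, 34.25 and 64.0. The motifs of the 2 sites next to coding Ccl1 thus pointed towards Ccl8 and Ccl12, and the one beyond pointed the other way.

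The Ccl5 to Ccl4 cluster on the same chromosome, 138.9 kb at chr11:83525778-83664683, holds Ccl3, Ccl4 and Ccl5, which attract monocytes and T cells in inflammation, and Ccl6 and Ccl9, which act on myeloid cells. Its window had 11 sites, or 3.25 per 100 kb, close to the 3.36 of the chromosome. Inside the cluster the density was 2.88. Ccl5 was divided from Ccl9 by a plus-strand site at chr11:83556448-83556651, with 97.1 in replicate 1, 79.9 in replicate 2 and 175.9 in the optimal list. A weak site between Ccl9 and Ccl6 had no motif and signals of 11.7, 6.91 and 20.2. Between Ccl6 and Ccl3 lay a site without a motif, with 39.9, 31.2 and 75.0, and a minus-strand site with 17.9, 18.6 and 35.5. Ccl3 and Ccl4, which are transcribed away from each other, shared an interval of 89.2 kb.

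Strong sites framed this cluster from farther out. Before it, at 85.3 kb, a plus-strand site in a coding exon of 1700020L24Rik had 236.9, 174.7 and 409.3. Beside that one lay a minus-strand site with 121.1, 103.6 and 219.1 and, in a UTR of Mmp28, one without a motif with 98.5, 82.1 and 179.9. After the cluster, at 74.8 kb, a minus-strand site near Wfdc21 had 157.1, 114.0 and 273.6. The motifs of the 409.3 and 273.6 sites pointed towards the cluster. The nearest motif-bearing sites on each side were weaker, with 33.5 before Ccl5 and 55.7 after Ccl4, and also pointed inwards. The motif of the latter scored 12.6, close to the threshold of 12.05, so its direction is less sure. Of the 7 motifs in the window, 3 were on the plus strand and 4 on the minus strand.

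**Figure D2:**
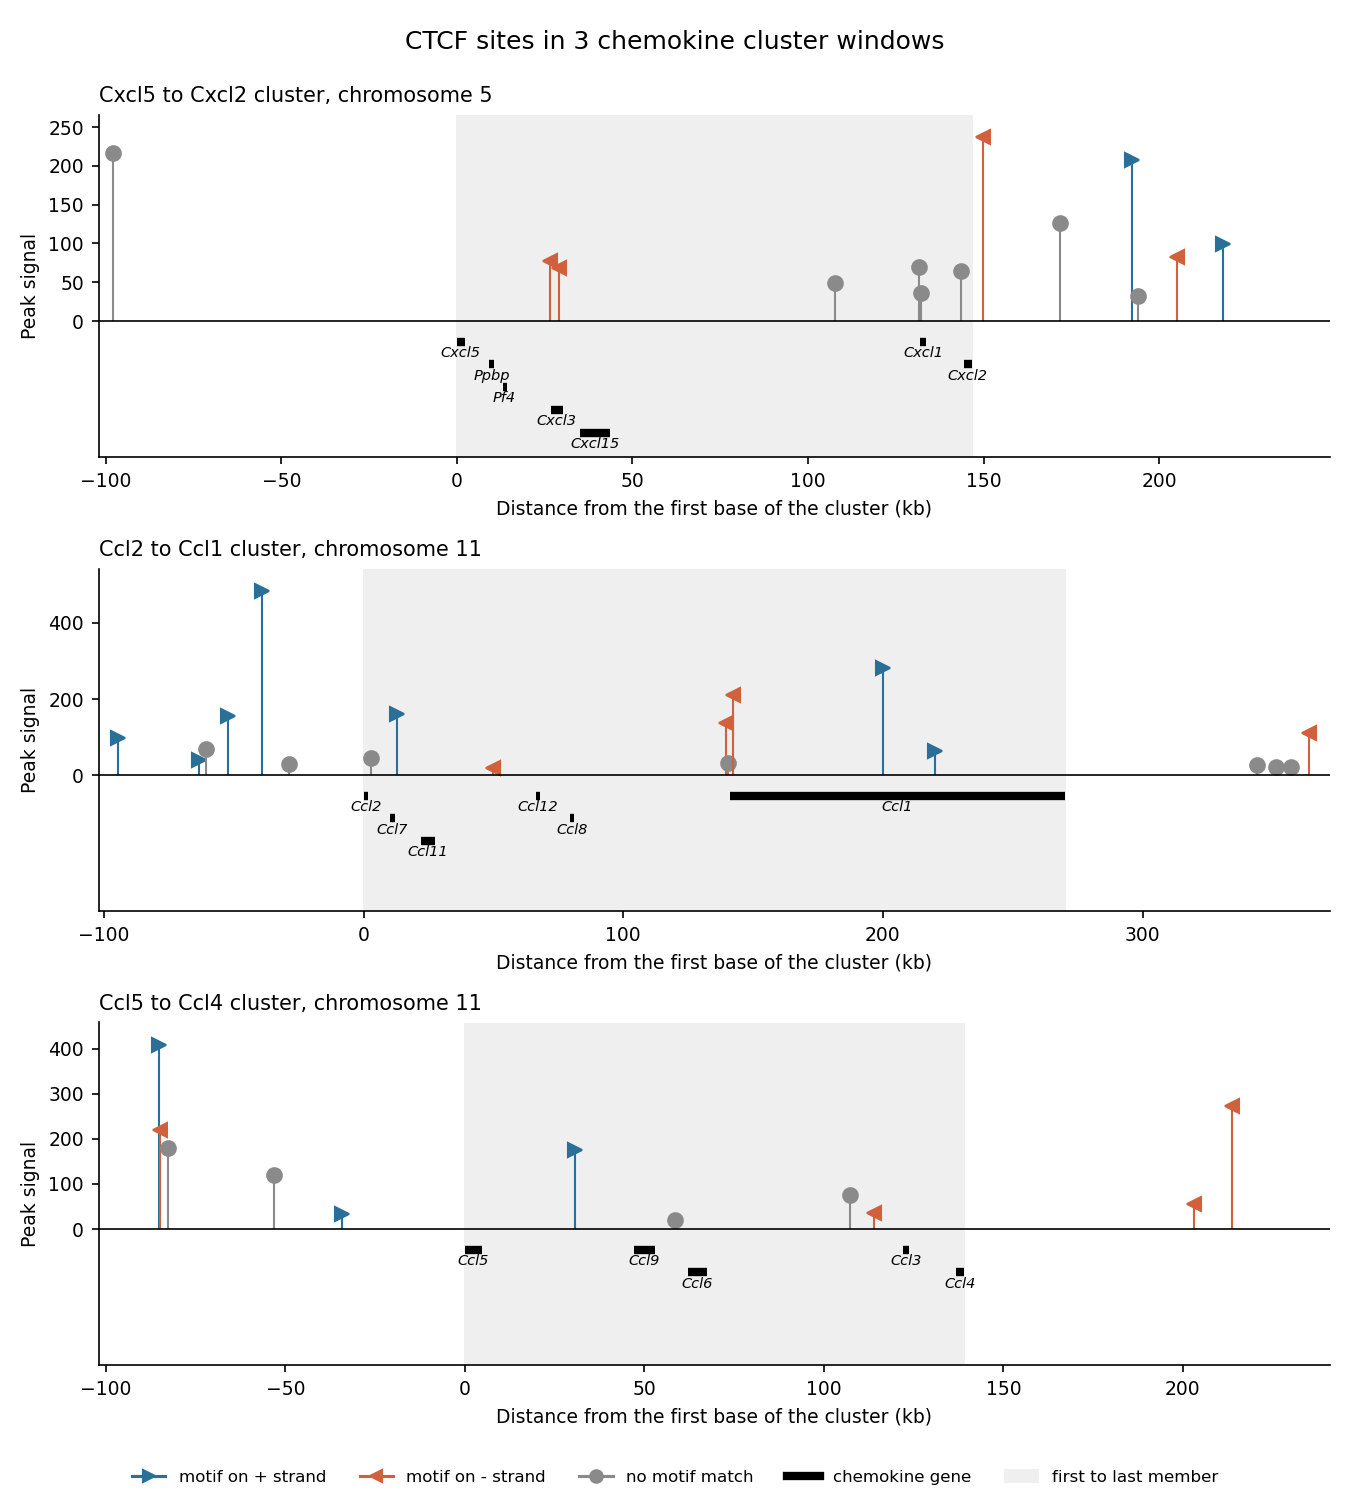
Peak signal of each CTCF site in the optimal list (vertical axis) against its distance in kb from the first base of the cluster (horizontal axis), for the chromosome 5 window and both chromosome 11 windows with 100 kb on each side; triangles point in the motif's direction, circles have no motif match, black bars are the chemokine genes and grey shading runs from the first to the last member. The highest sites, 237.7, 485.1 and 409.3, stand outside the shading in all 3 panels.

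The Ccl27a to Ccl21a cluster on chromosome 4, 1004.5 kb at chr4:41769467-42773993, held no site at all between its first and last member. With its flanks the cluster had 1.08 sites per 100 kb, against 2.26 on the chromosome. Its genes are homeostatic: Ccl19 and Ccl21a bind CCR7 and bring dendritic cells and T cells into lymph nodes, and Ccl27a binds CCR10 in the skin. All 5 members lay in a stretch of 1110.3 kb between the sites at 41760612 and 42870953. Over 54923 intervals between consecutive sites the median was 16.4 kb, and this one ranked 145 by length, and 11 of 3535 on chromosome 4. Even among the 300000 pooled peaks only 2 lay in it, or 0.180 per 100 kb against 12.3 on the chromosome, and the stronger had a signal of 8.32.

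This stretch is made largely of repeated sequence. Of its 31-base words, 93.9% occurred more than once on chromosome 4, against 14.1% for the whole chromosome and 5.17% to 14.2% for the other 4 windows. Assembly gaps took up 4.50% of it, and its soft-masked share, 34.3%, was near the 34.4% of the chromosome. No source used here says how reads that match several places were treated. The part of that sequence in the absence of sites was not tested, so the values do not show that CTCF was absent from Ccl19, Ccl21a, Ccl21b, Ccl27a or Ccl27b.

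The edges of the stretch carried sites. After Ccl21a a minus-strand site in an intron of Fam205c had 26.9, 20.8 and 48.35. Its motif pointed into the cluster. The lower edge was dense, with 12 sites in the 100 kb before Ccl27a, most of them in Il11ra1 and Rpp25l, and the upper edge had 1. Among the sites of the lower edge, one in an intron of Il11ra1 had 121.1 in replicate 1, 119.6 in replicate 2 and 236.2 in the optimal list and no motif match. A plus-strand site at the Rpp25l promoter had 106.1, 88.5 and 194.9, and minus-strand sites of 175.1 and 144.5 lay in introns of Il11ra1.

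The Ccl22 to Ccl17 cluster on chromosome 8, 66.4 kb at chr8:94745590-94812036, holds the CCR4 ligands Ccl22 and Ccl17 with Cx3cl1 between them. Its window had 13 sites, or 4.88 per 100 kb, against 2.26 on the chromosome. Inside the cluster the density was 3.01, and most sites of the window lay in the flanks. Ccl22 and Cx3cl1 shared an interval of 81.7 kb. Between Cx3cl1 and Ccl17 lay 2 sites, one on the plus strand with 38.0 in replicate 1, 31.4 in replicate 2 and 68.2 in the optimal list, and one without a motif with 50.2, 33.7 and 84.2. Just past Ccl17, 2.5 kb from its TSS, a minus-strand site at chr8:94812904-94813083 had 92.3, 79.2 and 171.6. On the other side, 41.4 kb before Ccl22, a plus-strand site had 152.9, 104.3 and 255.0, next to one without a motif with 171.1, 145.2 and 318.6. The nearest motifs on both sides thus pointed into the cluster. Only 1.8 kb beyond the one past Ccl17, a plus-strand site of 110.2 pointed away from it. Beyond Ccl17 a plus-strand site in an intron of Dok4 had 157.3 and 144.7 in the replicates and 300.4 in the optimal list. Minus-strand sites in Polr2c and Ccdc102a had 246.4 and 246.6.

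**Figure D3:**
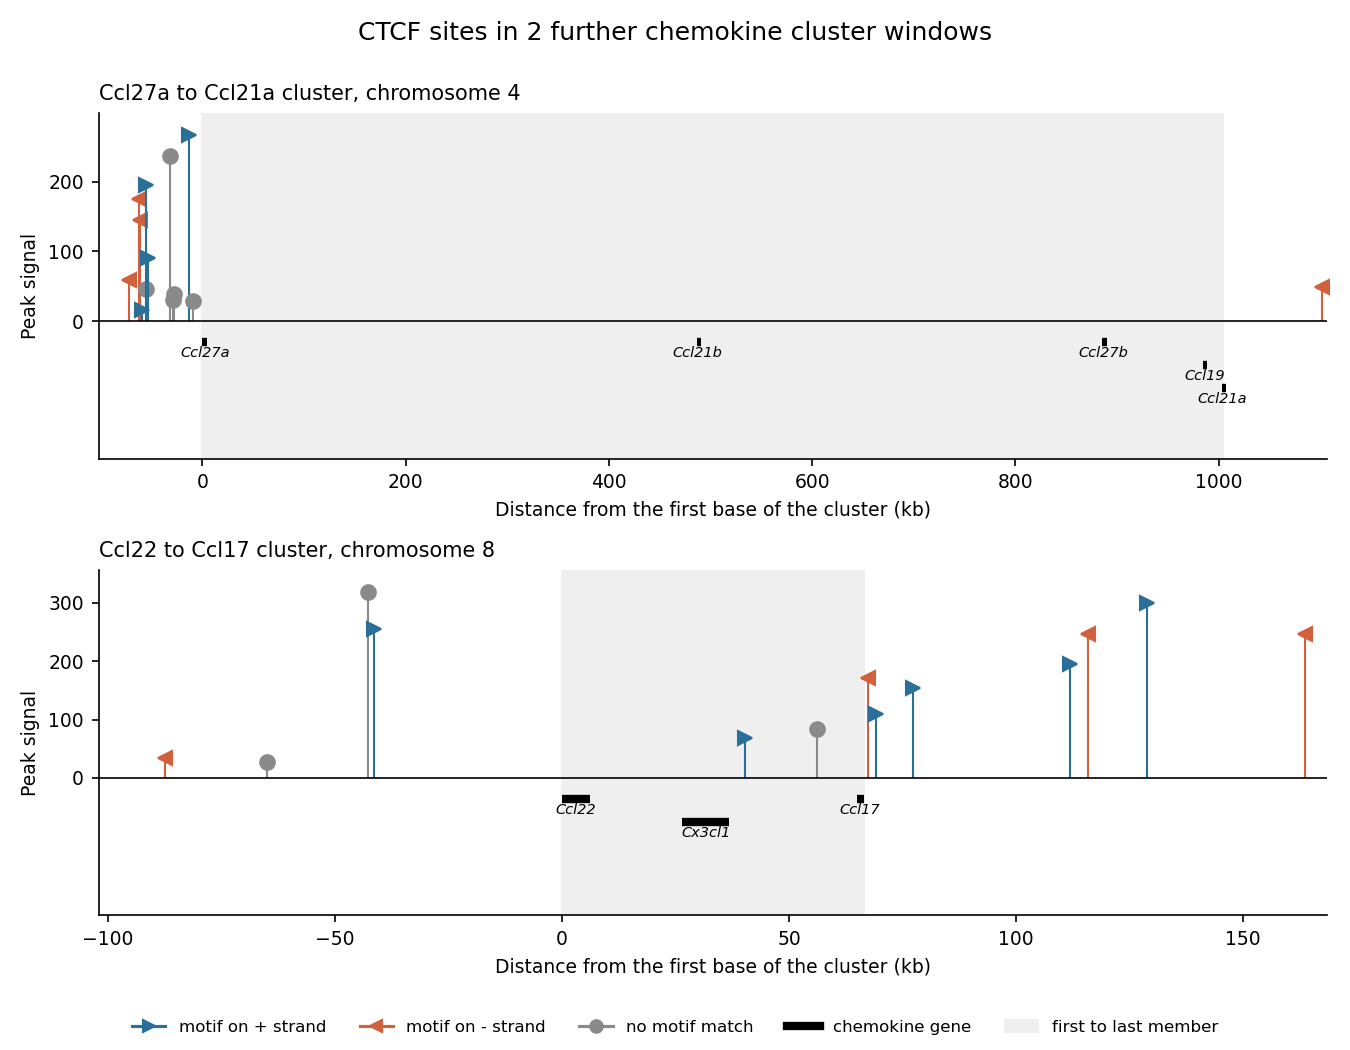
Peak signal of each CTCF site (vertical axis) against distance in kb from the first base of the cluster (horizontal axis) for the chromosome 4 and chromosome 8 windows; triangles point in the motif's direction, circles have no motif match, black bars are the chemokine genes and grey shading runs from the first to the last member. The chromosome 4 panel has 12 sites before the shading, 1 after it and none in it, while the chromosome 8 panel has 2 inside.

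Among the 13 genes outside the clusters, Cxcl12 had the nearest CTCF. Cxcl12, the ligand of CXCR4 and ACKR3, guides progenitor cells and vessels in the embryo. A plus-strand site 1526 bp upstream of its TSS, at chr6:117166901-117167116, had 123.7 in replicate 1, 76.9 in replicate 2 and 197.4 in the optimal list. Within the gene, in annotated UTR sequence, a plus-strand site 5.5 kb downstream had 148.9, 113.0 and 262.3, and one without a motif 8.1 kb downstream had 53.6, 40.4 and 95.2. At each of the 3 the value in replicate 1 was the higher. Both receptors of this ligand had a site within 1 kb of the TSS, as given above.

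Cxcl13, Cxcl14, Cxcl16 and Cxcl17 lay between 3.3 and 7.7 kb from their nearest site. Cxcl17, a chemokine of mucosal surfaces, carried 2 sites within its body, a minus-strand site of 67.7 in an intron 3.3 kb downstream and one of 148.9 in a coding exon farther downstream. Cxcl14 had a minus-strand site of 36.95 in an intron 6.4 kb downstream. Cxcl13, which draws B cells through CXCR5, lay between a site without a motif 6.5 kb upstream, with 68.5, 47.0 and 116.3, and a minus-strand site 14.1 kb downstream, with 72.1, 63.3 and 134.6. The nearest site of Cxcl16 was that of the Med11 promoter, 7.7 kb away, with 177.7, 133.6 and 313.1 and no motif match.

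Cxcl9 and Cxcl10, which interferon gamma induces and which bind CXCR3, lay together in an interval of 62.5 kb. On the Cxcl9 side a plus-strand site pointed towards them, with 104.1 in replicate 1, 83.1 in replicate 2 and 187.9 in the optimal list, 15.6 kb from the Cxcl9 TSS. On the Cxcl10 side the first site, in an intron of Art3, was weak, with 11.2, 15.7 and 28.0, and had no motif match. Ccl24 and Ccl26, of the eotaxin group, shared an interval of 61.4 kb between a plus-strand site of 60.5 and a minus-strand site of 107.9, which pointed towards each other.

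The lone CC genes and Xcl1 differed widely. Ccl25, which draws T cell precursors to the thymus through CCR9, had a minus-strand site of 138.3, 113.0 and 251.3 in an intron of Elavl1, 2.5 kb upstream of its TSS. Ccl28, a mucosal ligand of CCR10, held a plus-strand site of 116.8 in an intron 16.9 kb downstream, and this was the only site within 100 kb of its TSS. Ccl20 had a site of 225.3 at 40.4 kb upstream and one of 41.1 at 33.6 kb downstream, both on the minus strand. Xcl1, the lymphotactin gene of T and NK cells, had sites of 22.1 at 22.7 kb upstream and 174.9 at 30.3 kb downstream, neither with a motif match.

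The 68 sites of the cluster windows had a median signal of 87.7 against 62.3 over all sites, and 44 of 68 or 64.7% lay above the latter. Of them 7 of 68 or 10.3% ranked among the strongest 10% of all sites, and 62 of 68 or 91.2% were also in the conservative list, against 87.5% of all sites. The motif was found in 42, or 61.8% (95% Wilson interval 49.9 to 72.4), against 55.2% of all sites. Above the median signal of all sites the share was 75.0% of 44, against 70.0% over the genome, and at or below it 37.5% of 24, against 40.35%. Adjacent motifs of a window formed 37 pairs, of which 9 or 24.3% were convergent, 8 or 21.6% divergent and 20 or 54.1% in tandem. Over the 30307 adjacent pairs of the genome these shares were 24.3%, 24.3% and 51.3%. The windows were chosen for their genes, and none of these shares was tested.

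A few of the motifs shared their right-hand end with a repeat-derived form. The commonest last 12 bases of a motif match over the genome were agagggcatcag, found at 1554 of 30327 motif-bearing sites or 5.12%, and 99.7% of those lay in soft-masked, that is repeat, sequence, against 28.5% of all matches. As background, rodent B2 elements, short retrotransposons, carry many copies of the CTCF motif, though repeat families were not annotated here. In the windows 4 of 42 motif-bearing sites had this end, all 4 soft-masked. Among them were the site inside Cxcl3 and the weak one before Ccl5.

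Both replicates listed nearly all of these sites. A summit within 50 bp was found in both for 67 of 68. The exception, in Mthfd2l past Cxcl2, had 134.7 in replicate 1 and a replicate 2 summit 51 bp away with 76.8. The ratio of replicate 1 to replicate 2 signal had a median of 1.22 and ranged from 0.579 at the Cxcl2 promoter to 3.22 at the weak site between Ccl11 and Ccl12. In 60 of the 67 the peak ranked within the first 54943 of both replicate lists.

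**Figure D4:**
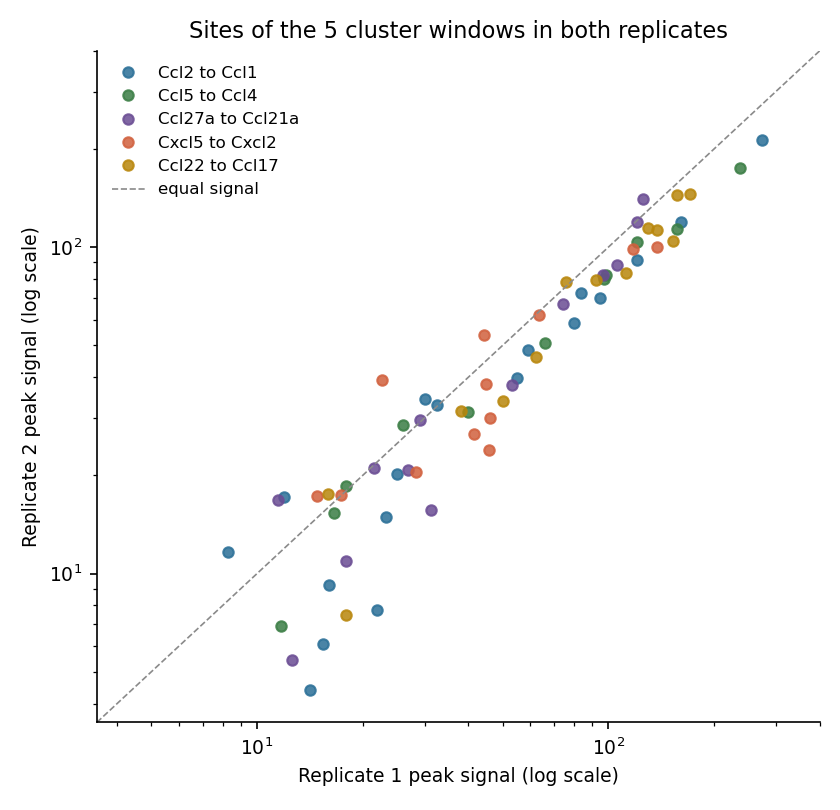
Peak signal in replicate 2 against replicate 1 (both axes log scale) for the 67 cluster window sites with a summit in both lists, coloured by cluster, with the dashed line at equal signal. Points lie along the line and mostly below it, with a median ratio of 1.22, and scatter more at low signal, where the ratio reaches 3.22.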

How the data were processed

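Per the README deposited with the samples, the narrowPeak lists on mm10 were made from alignments with 1 shared control, 1 list per replicate, 1 from both replicates, and the optimal and conservative lists by IDR. No source used here names the peak caller, the aligner or the IDR cutoff. The signal and summit offset are the values the authors deposited, and whether signals were scaled between lists is not stated.

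Sites were summits (start plus offset) of optimal peaks, and 10 peaks on other sequences were left out. Genes and TSSs came from GENCODE M21, and sequence from GRCm38 patch 6, whose chromosomes are those of mm10. The 20-base matrix grew from the most enriched 9-base word of the strongest 3000 sites in 15 rounds, each leaving out the lowest 30%, with a threshold passed by 1% of control windows, moved 1 kb from the sites. A match had its centre within 50 bp of the summit. The threshold was a score of 12.05, and the strand of a match just above it is less sure. The scan was tested on simulated data. Replicate signals are those of the nearest summit within 50 bp. Named genes were every member, every receptor with a promoter site and, for each cluster, the strongest 5 sites of its window, the nearest with a motif on each side and all between its first and last member, except 1 site that is not reported here. The members and lists were chosen with earlier results of these data known. Versions were numpy 2.4.6, scipy 1.17.1, pandas 2.3.3 and matplotlib 3.10.9 under Python 3.11.15. Alternatives are listed in the closing section.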

Additional observations from a re-analysis of the deposited data

How the results depend on the processing

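The count of members with a promoter site was 3 in the conservative list, the strongest pooled peaks and with every transcript start or peak overlap, 2 within 500 bp, and 3 to 4 with a replicate left out. It was 9 within 5 kb (44.8% of all protein-coding genes) and 0 among the strongest 10000 sites (4.28% of all). At that threshold the windows held 3 sites each, and 6 for Ccl22 to Ccl17, the motif share was 83.3% of 18 sites, and the median distance 67.8 kb. The flank sets the window counts by construction. With 50 kb they were 10 for Ccl2 to Ccl1, 5 for Ccl5 to Ccl4 and 5 for Ccl27a to Ccl21a. With 250 kb they were 26 for Ccl5 to Ccl4, 37 for Ccl27a to Ccl21a and 28 for Ccl22 to Ccl17. With no flank they were 8 for Ccl2 to Ccl1, 4 for Ccl5 to Ccl4, 0 for Ccl27a to Ccl21a, 6 for Cxcl5 to Cxcl2 and 2 for Ccl22 to Ccl17. Chaining within 2 Mb joined both chromosome 11 clusters (62 sites) and joined Cxcl9 and Cxcl10 to the chromosome 5 cluster (46 sites). A motif was found in 45.6% of sites within 100 bp, where the threshold was stricter, and in 17.65% at the 0.1% threshold. Tandem pairs were then 12 and 1, and at 0.1% convergent pairs 4 and divergent pairs 2. Of the alternatives 29 moved a count or distance past a set fold change, or the motif share outside its Wilson interval. The other 46 stayed within those limits, though some changed the value, as the promoter count of 2 within 500 bp did. Leaving out the chromosome 4 members was chosen after seeing the data. No paired analysis was possible because both replicates form 1 group. Depth is unknown, so sites missed for want of reads cannot be told from unoccupied ones.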
